A study of Mus musculus with 8 samples.

Results

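The cytosolic ribosome is built from ribosomal RNA and ribosomal proteins, which join a large and a small subunit in the nucleolus before the subunits leave for the cytoplasm. Because a cell needs the proteins in near-equal numbers, their genes are known to be expressed together, and many of their mRNAs begin with a C followed by other pyrimidines, the 5′ terminal oligopyrimidine (TOP) tract through which mTORC1 controls their translation. The genes have also left many processed pseudogenes in mammalian genomes, so a short read from one of these mRNAs can match several places. The genes described here are the protein-coding mouse genes with symbols of the form Rpl or Rps plus a number, the 3 stalk proteins Rplp0, Rplp1 and Rplp2, and Rpsa, with the Rps6k kinases left out. They were 83 of the 41388 genes in the tables, 51 of the large subunit and 32 of the small subunit.

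RNA was sequenced from macrophages of the epididymal white fat of 4 male mice of the MitoFat strain, fed normal chow. MitoFat mice carry a mitochondrial reporter that is specific to adipocytes, so a macrophage that holds the reporter has taken up material from an adipocyte. From each mouse, live CD45+ F4/80+ CD64+ cells were sorted into mtD2- cells, without the reporter, and mtD2+ cells, with it, which gave 4 pairs of libraries and 8 libraries in all. The sources used here do not give the mice's age, the driver of the reporter or how many cells were sorted. Total counts ran from 18462287 to 27464399 per library. The 14 macrophage marker genes were all tested, and their summed level was 22290 to 26422 CPM (counts scaled by library size) in mtD2- and 19052 to 23011 CPM in mtD2+ cells.

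Ribosomal protein genes took a smaller share of the counts in mtD2+ than in mtD2- cells of every mouse. The share was 0.821%, 0.938%, 0.772% and 0.915% in the mtD2- cells of mice 1 to 4, and 0.675%, 0.740%, 0.571% and 0.785% in the mtD2+ cells. The mtD2+ library was the lower one in each pair, although the mtD2+ value of mouse 4 lay above the mtD2- value of mouse 3, so that the groups overlapped. The mean was 0.862% ± 0.078 (SD, n = 4) against 0.693% ± 0.093 (SD, n = 4), a mean log2 ratio of -0.32 ± 0.09 (SD over 4 mice). With 4 pairs the exact two-sided sign-flip permutation test cannot go below 0.13, which is the p it gave, so with 4 pairs this test cannot take a single value past 0.05. The share rests on 129350 to 231189 counts per library. In bulk RNA a change in RNA per cell and a change in the kinds of cell sorted cannot be told apart.

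Of the 83 genes, 79 had enough counts to be tested, 47 of the large and 32 of the small subunit. Fold changes are given as log2 of mtD2+ over mtD2-, from edgeR's quasi-likelihood test with the mouse as a block, and calls rest on p-values adjusted by Benjamini-Hochberg over all 13933 genes tested, under 0.05. Genes that fell in mtD2+ cells included Rpl7l1 and its counterpart Rpl7, and Rpl10 rose. In all, 5 of 79 genes were called, or 6.33%, against 5.5% of all genes tested in either direction. The 4 that fell are 5.06% of the 79 against 1.78% of all genes, and the 1 that rose stands against 3.72%. Most of the others leaned the same way by a small amount: 57 of 79 estimates were below 0, against 50.1% of all genes, and the median was -0.22, against 0.00 for all genes tested and -0.03 for the protein-coding ones. In 39 of the 79 (49.4%) the mtD2+ library was lower in all 4 mice, against 16.1% of all genes, while 9 (11.4%) were higher in all 4, against 16.3%. The values of the groups did not overlap for 14 (17.7%), 10 of them lower and 4 higher, against 12.6% of all genes. Unadjusted p-values under 0.05 were reached by 24 genes that were lower and 3 that were higher, where the shares over all genes were 11% and 11.8%. The median log2 ratio of the 79 was -0.15, -0.16, -0.28 and -0.23 in mice 1 to 4.

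**Figure D1:**
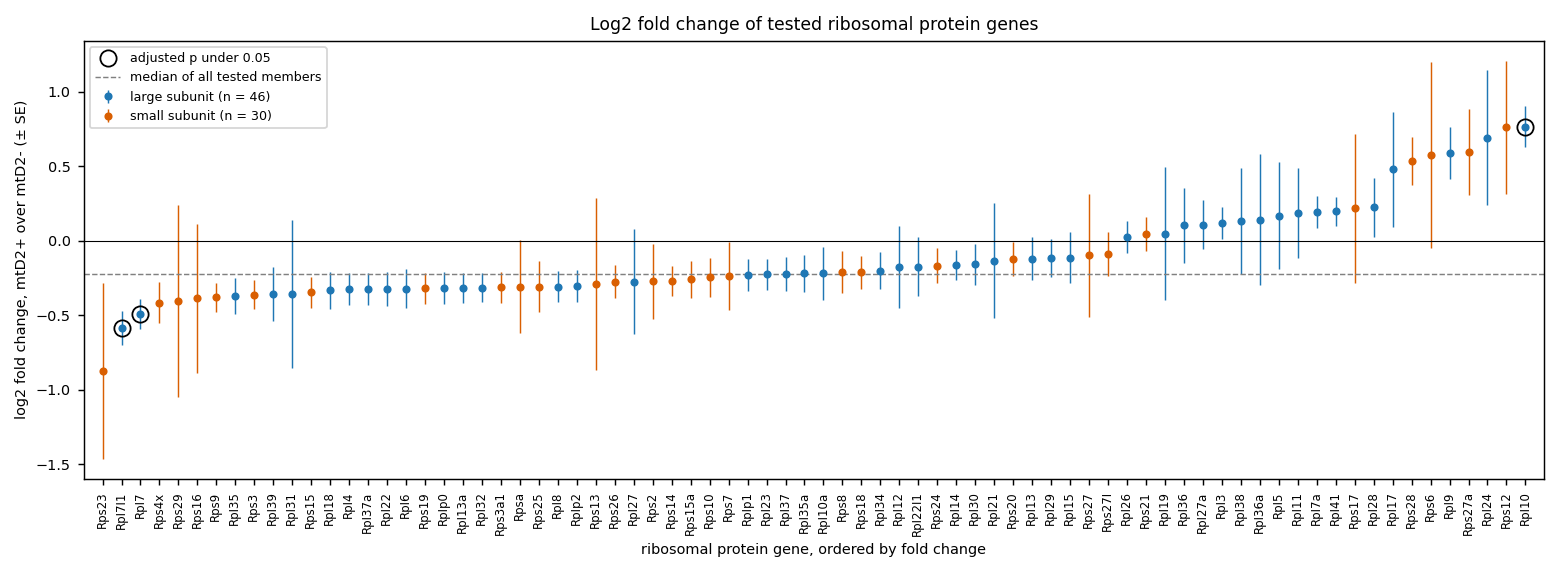
Log2 fold change of 76 of the 79 tested ribosomal protein genes (y axis, mtD2+ over mtD2-, with its standard error), ordered along the x axis, large subunit in blue and small subunit in orange; the dashed line is the median of all 79 and rings mark genes past the test. Most points lie just below 0 with short error bars. Long error bars of low counts stand at both ends of the order, as for Rps23, Rps12 and Rpl24. Other genes near the ends, such as Rps4x and Rpl9 and those ringed, have shorter ones.

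Rpl7l1, a paralogue of the large subunit protein Rpl7, had the lowest estimate among the genes that fell (17:46773907-46782656, minus strand, GRCm38). Its level was 114, 109, 100.4 and 114 CPM in the mtD2- cells of mice 1 to 4 and 75.7, 84.9, 57.4 and 75.8 CPM in the mtD2+ cells. Every mtD2+ library lay below every mtD2- library, a 1.5-fold lower level (log2 -0.59 ± 0.12 SE, edgeR adjusted p = 0.0235). Its ordinary counterpart Rpl7 (1:16101295-16104662, minus strand) fell with it. Rpl7 was at 180.1, 218, 173 and 201 CPM in mtD2- and at 128, 158, 114 and 152 CPM in mtD2+ cells. These groups did not overlap either, and the level was 1.4-fold lower (log2 -0.49 ± 0.10 SE, edgeR adjusted p = 0.0277).

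The call of Rpl7l1 was lost whichever mouse was left out, that of Rpl7 on leaving out mouse 1, 2 or 3, and both without the mouse block (edgeR adjusted p = 0.0642 and 0.118).

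Rpl10, one of the last proteins to join the large subunit, moved the other way (X:74270812-74273135, plus strand). It was at 97.9, 85.3, 108 and 74.7 CPM in mtD2- and at 163, 132, 154 and 173 CPM in mtD2+ cells. Every mtD2+ library was above every mtD2- library, a 1.70-fold higher level (log2 0.77 ± 0.13 SE, edgeR adjusted p = 0.0155). The call was kept under each of the 11 other settings that keep all mice, and with 1 mouse left out only when that was mouse 4. All 50-base windows of its coding sequence also occur in another gene's transcripts. One of these is Rpl10-ps3, a near-copy annotated as protein-coding on chromosome 9 (9:50344201-50344968), whose stretch over coding bases 61 to 120 is the same letter for letter. The pair is shown because a read lying wholly within this stretch cannot be placed by its letters.
Rpl10: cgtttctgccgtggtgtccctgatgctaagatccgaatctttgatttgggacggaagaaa
Rpl10-ps3: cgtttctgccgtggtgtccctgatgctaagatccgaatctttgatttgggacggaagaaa

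**Figure D2:**
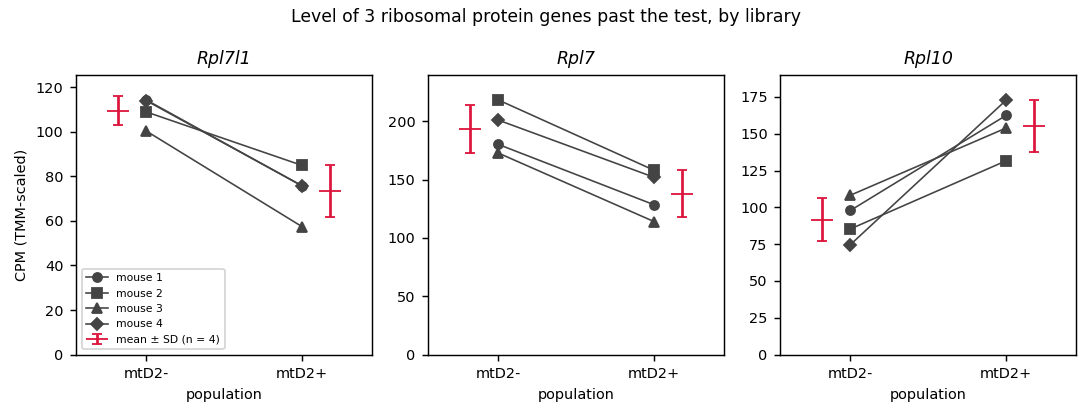
Level in CPM (y axis, from 0) of Rpl7l1, Rpl7 and Rpl10 in mtD2- and mtD2+ cells, one line per mouse, with the mean ± SD of 4 libraries in red. The lines of Rpl7l1 and Rpl7 all slope down and those of Rpl10 all slope up, and the groups do not overlap for any of the 3.

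The large subunit's 47 tested genes held 3 of the genes that fell and the 1 that rose, with 31 of 47 (66.0%) below 0 and a median of -0.18. The small subunit's 32 held 1 that fell, with 26 of 32 (81.25%) below 0 and a median of -0.27. Among all genes tested 1.78% fell, 3.72% rose and 50.1% were below 0. The calls are too few to tell the subunits apart. Summed over their genes, the log2 ratio of large to small subunit CPM was 0.58, 0.46, 0.58 and 0.56 in the mtD2- cells of mice 1 to 4 and 0.65, 0.59, 0.62 and 0.65 in the mtD2+ cells. It was higher in the mtD2+ cells of all 4 mice, and the groups did not overlap. The mean difference was 0.08 ± 0.04 (SD over 4 mice), beside an SD of 0.06 among the mtD2- libraries, at the smallest p the exact paired permutation test allows (0.13). With pseudogene counts added the groups overlapped (mtD2- up to 0.60, mtD2+ from 0.58), and the mean difference was 0.06. The median log2 level in place of the sum also gave overlapping groups (0.06 to 0.31 against 0.08 to 0.39), with a mean difference of 0.07. Without paralogues the groups stayed apart, with a mean difference of 0.09. The ratio was higher in the mtD2+ cells of all 4 mice in each of these settings.

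**Figure D3:**
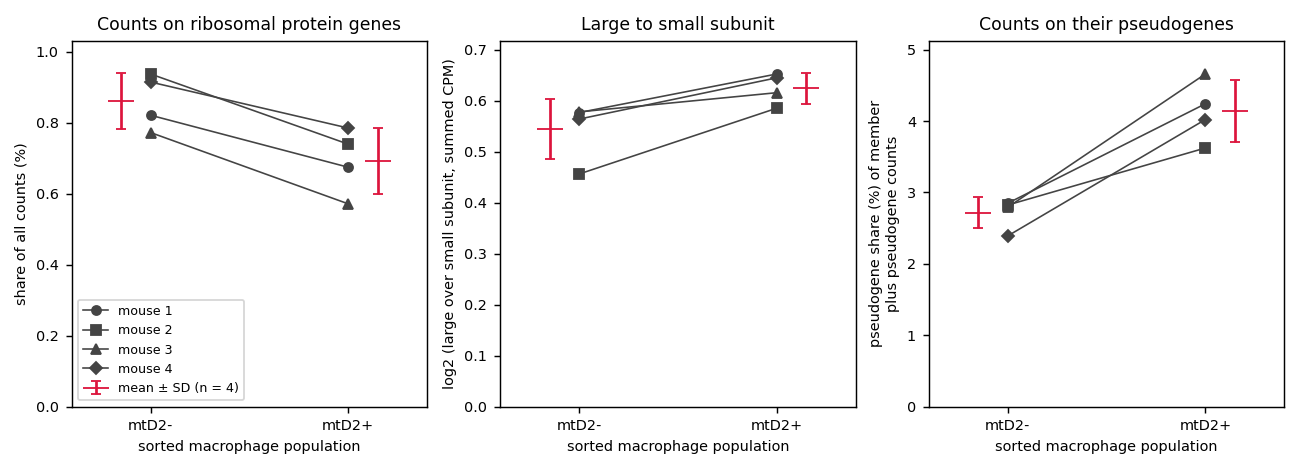
Per-library values (y axes, from 0) in mtD2- and mtD2+ cells: the share of all counts on ribosomal protein genes in percent, the log2 ratio of large to small subunit CPM, and the share of ribosomal protein counts that lay on pseudogenes in percent. Each line is a mouse and red marks the mean ± SD of 4; the share goes from a mean of 0.862% to 0.693%, the subunit ratio moves from 0.54 to 0.62 and the pseudogene share from 2.71% to 4.14%.

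A few genes carried most of the signal. The 8 genes with most counts held over 50% of those on the 83 genes, and 57.7% lay on 10, Rpl4, Rps9, Rpl8, Rps3, Rpl32, Rpl13a, Rplp0 and Rps14 among them (this list and the genes Rps9, Rpl4, Rps3, Rpl41, Rps28 and Rps4x were chosen for naming after their values were seen). Per kilobase of the deposited gene length, which covers all exons, Rpl32 had the highest level (779.9 CPM per kilobase, RPKM), and Rpl8 was also among the 3 highest (544 RPKM). Rpl32 was at 421, 469, 362 and 532 CPM in mtD2- and at 349, 372, 273 and 448 CPM in mtD2+ cells (log2 -0.32 ± 0.10 SE, edgeR adjusted p = 0.101). All 4 mice had less Rpl32 in the mtD2+ cells, in overlapping groups, and it was not called. Rpl8, whose protein lies close to the site of peptide bond formation, had nearly the same estimate, log2 -0.31 ± 0.11 SE, and was not called (edgeR adjusted p = 0.129).

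Among the genes not called, Rps9 came closest to the threshold. It was at 631, 697, 577 and 739.9 CPM in mtD2- and at 475, 539, 454 and 565 CPM in mtD2+ cells, with no overlap (log2 -0.38 ± 0.10 SE, edgeR adjusted p = 0.0568). Rpl4, which lines the tunnel through which the new peptide leaves, was at 853, 825, 759.6 and 928 CPM in mtD2- and at 692, 738, 524 and 755 CPM in mtD2+ cells. These also did not overlap, and Rpl4 was not called (log2 -0.32 ± 0.11 SE, edgeR adjusted p = 0.113). Rps3, of the mRNA entry site, had a log2 estimate of -0.36 ± 0.10 SE (edgeR adjusted p = 0.0690), and Rps4x one of -0.42 ± 0.14 SE (edgeR adjusted p = 0.115).

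The stalk proteins, which recruit elongation factors to the large subunit, kept close together. The log2 estimate was -0.32 for Rplp0, -0.23 for Rplp1 and -0.30 for Rplp2, each with a standard error of 0.11, and none was called (edgeR adjusted p = 0.12, 0.249 and 0.132). Rplp1 had 236 to 355 CPM over the mtD2- libraries and 176 to 301 CPM over the mtD2+ ones, in overlapping groups. Rpsa, which is also known as a laminin receptor, was counted at only 5.42 to 5.98 CPM in mtD2- and 3.65 to 5.60 CPM in mtD2+ cells (log2 -0.31 ± 0.31 SE, edgeR adjusted p = 0.606).

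Rpl5 and Rpl11, which with 5S ribosomal RNA bind Mdm2 and so tie ribosome assembly to p53, were counted at low levels. Rpl5 ranged from 5.06 to 7.58 CPM in mtD2- and from 2.55 to 10.5 CPM in mtD2+ cells, and Rpl11 from 3.86 to 6.81 CPM and from 5.38 to 7.34 CPM. Neither was called (log2 0.17 ± 0.36 SE and 0.19 ± 0.30 SE, edgeR adjusted p = 0.824 and 0.764), and the sign turned for Rpl5 without mouse 3 and for Rpl11 with its pseudogene counts added. Rps6, the substrate of the S6 kinases, was counted at 0.506 to 1.85 CPM in mtD2- and 1.08 to 3.32 CPM in mtD2+ cells, the lowest level per length of the tested genes at 0.955 RPKM. The next lowest were Rpl21 at 0.967 RPKM and Rpl36a at 1.5 RPKM, all 3 far below Rpl32.

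Paralogues other than Rpl7l1 did not pass the test. Rpl22l1 had a log2 estimate of -0.17 ± 0.20 SE beside -0.32 ± 0.11 SE for Rpl22, and Rps27l one of -0.09 ± 0.15 SE beside -0.10 ± 0.41 SE for Rps27. Rps27 turned positive with its pseudogenes added and without mouse 4. The paralogues that failed the filter on low counts were those known from testis or muscle. Rpl10l had no count in any library, which allows up to 0.109 to 0.162 CPM by counting error alone. Rpl39l, beside Rpl39 at 13.7 RPKM, had 0 to 17 counts. Rpl3l, beside Rpl3 at 35.0 RPKM, had 0 to 8 counts in mice 1 to 3, and 70 and 60 counts in the mtD2- and mtD2+ cells of mouse 4. The fourth untested gene, Rpl23a, had 1 to 9 counts.

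The largest standard errors belonged to genes with few counts, but not every gene at the ends of the fold changes had few counts. At the high end of the fold changes, after Rpl10, stood Rps12, Rpl24, Rps27a (a fusion of ubiquitin with a small subunit protein) and Rpl9, with log2 estimates of 0.76 ± 0.45 SE, 0.69 ± 0.45 SE, 0.60 ± 0.29 SE and 0.59 ± 0.17 SE. Rpl9 was at 20.2, 14.4, 23.3 and 15.2 CPM in mtD2- and at 30.7, 24.9, 26.5 and 26.3 CPM in mtD2+ cells, which did not overlap, and it was not called (edgeR adjusted p = 0.0862). Rps28, at 14.1 to 24.9 CPM in mtD2- and 23.0 to 38.0 CPM in mtD2+ cells, had a log2 estimate of 0.54 ± 0.16 SE (edgeR adjusted p = 0.0891). At the low end Rps23, a protein of the decoding centre, was at 2.12, 2.00, 2.99 and 2.02 CPM in mtD2- and at 1.55, 1.82, 0.664 and 1.13 CPM in mtD2+ cells (log2 -0.87 ± 0.59 SE, edgeR adjusted p = 0.425).

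How much of a gene's coding sequence is unique went with both its level and its fold change. For each gene the share of 50-base coding windows that also occur in the transcripts of another annotated gene was computed. Of the 83 genes, 29 shared all of their windows. Over the 79 tested genes, Spearman's rho of this share was -0.79 with the RPKM level and 0.52 with the log2 fold change, against -0.02 for length, -0.06 for GC content and -0.36 for the RPKM level with the fold change. These are descriptions across genes that share the same 8 libraries.

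Split by this share at limits set after the values were seen, the 12 tested genes with under 50% shared had medians of 211 RPKM and, for the log2 fold change, -0.32. Of these, 11 were below 0, 10 were lower in all 4 mice, 2 fell, Rpl7l1 among them, and none rose (over all genes 1.78% fell and 3.72% rose), and they held 50.5% of the counts on the 83 genes. The 39 with 50% to under 100% shared had medians of 38.2 RPKM and -0.24, with 35 below 0, 27 lower and 1 higher in all 4 mice, 2 fallen (Rpl7 among them) and none risen. The 28 tested genes with every window shared had medians of 3.11 RPKM and 0.14, with 11 below 0, 2 lower and 8 higher in all 4 mice, 1 risen (Rpl10) and none fallen. They held 6.27% of the counts, and the median standard error was 0.37, against 0.11 in the first class. The median log2 fold change was thus negative in the first and the second class and positive in the third. Among the genes sharing every window, Rpl41, the smallest of the proteins, still had 136 RPKM and Rpl10 had 60.1 RPKM; for Rpl41, 42.0% of the windows over its whole mRNA were shared. Per coding kilobase the order of levels differed, with Rpl41 first (2121 CPM per coding kilobase), then Rps9 (1005) and Rpl32 (996). The sources used here do not say how reads that match several places were treated, and its part in these levels was not tested.

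The same stretch, coding bases 61 to 120, is printed for a gene counted at a high level, Rps9, and one at the lowest, Rps6. Each stands above a close processed pseudogene, and capitals mark the bases that differ. Rps9 differs from Gm5905 (7:141177885-141178464, minus strand, 97.3% identity over the match) at 2 of these bases. Rps6 and Rps6-ps4 (2:75191073-75191822, minus strand) do not differ here.
Rps9: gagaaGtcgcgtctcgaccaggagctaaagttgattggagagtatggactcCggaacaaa
Gm5905: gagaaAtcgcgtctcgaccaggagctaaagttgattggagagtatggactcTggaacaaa
Rps6: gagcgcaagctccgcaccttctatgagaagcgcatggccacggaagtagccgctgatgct
Rps6-ps4: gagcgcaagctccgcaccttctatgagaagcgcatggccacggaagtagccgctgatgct

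**Figure D4:**
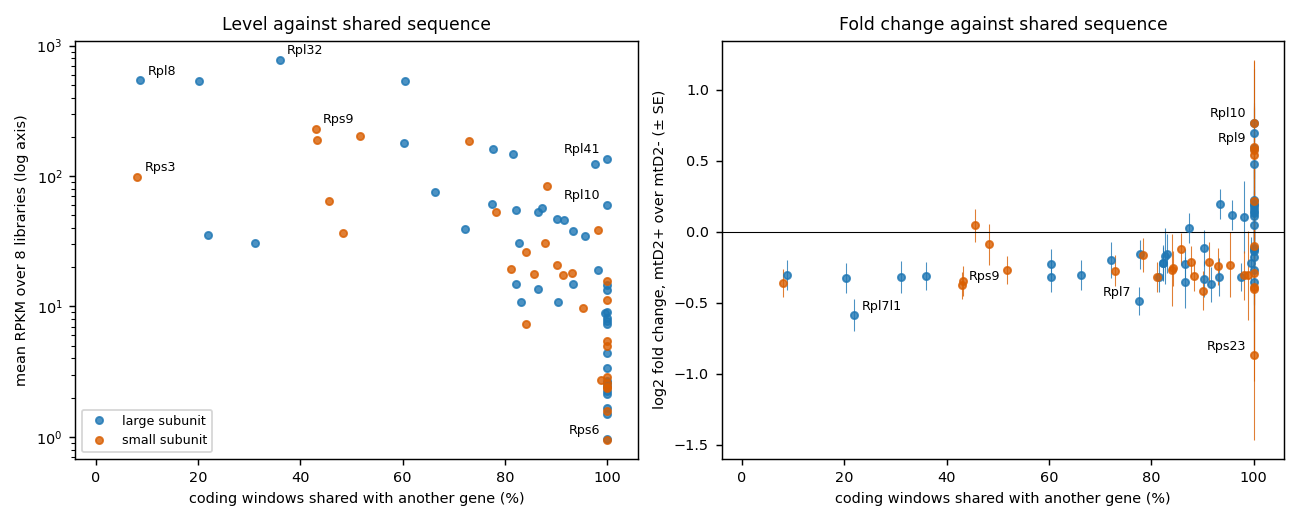
Mean RPKM over 8 libraries (left, log axis) and log2 fold change with its standard error (right) of 76 of the 79 tested ribosomal protein genes, against the percent of 50-base coding windows that occur in another gene's transcripts (x axes). Levels drop toward 100% shared, and the positive fold changes with long error bars stand there; genes under 50% shared lie between -0.59 and 0.04.

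Pseudogenes took a small share of the counts on ribosomal protein sequences, which was higher in the mtD2+ cells of every mouse. Of 1739 annotated pseudogenes that match a ribosomal protein coding sequence (at least 80% identity over at least 50% of it), 1050 were in the tables and 794 had a count. Their share of the counts on ribosomal protein genes and pseudogenes together was 2.85%, 2.82%, 2.79% and 2.39% in the mtD2- cells of mice 1 to 4 and 4.24%, 3.62%, 4.66% and 4.02% in the mtD2+ cells. All mtD2+ libraries were above all mtD2- libraries, by 1.42 ± 0.46 percentage points (SD over 4 mice, exact paired permutation test, two-sided p = 0.13, the smallest possible). Part of this difference lies in the denominator, since the ribosomal protein counts were lower in mtD2+ cells. As a share of all counts the pseudogenes had 0.0240% ± 0.0023 (SD, n = 4) in mtD2- and 0.0296% ± 0.0024 (SD, n = 4) in mtD2+ cells, 1.24 times as much and higher in all 4 mice (mean log2 ratio 0.31 ± 0.21 SD). In mouse 2 this held only with the pseudogene Gm17971 counted, which is described next. The 104 pseudogenes with enough counts to be tested had a median log2 fold change of -0.02, with 53 of 104 below 0.

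Gm17971, a copy of Rps2, and Gm4832, a copy of Rps24, rose, and no other of the 104 tested pseudogenes passed the test (both are named here because they did). Over all genes tested 3.72% rose and 1.78% fell. Gm17971 (1:55066264-55067069, plus strand) was at 15.9, 16.6, 7.65 and 21.1 CPM in mtD2- and at 53.9, 41.9, 33.3 and 57.5 CPM in mtD2+ cells. The groups were far apart (log2 1.66 ± 0.17 SE, edgeR adjusted p = 0.00249). Rps2 itself was not called (log2 -0.27 ± 0.25 SE, edgeR adjusted p = 0.566). It was higher in the mtD2+ cells of 2 of 4 mice and fell most in mouse 4, from 60.7 to 23.3 CPM. Gm17971 lies on the same strand inside the gene Coq10b, with 0 bases in common with its exons, and Coq10b, which acts in coenzyme Q function, also rose. Coq10b was at 51.0 to 119 CPM in mtD2- and 93.7 to 165 CPM in mtD2+ cells (log2 0.92 ± 0.14 SE, edgeR adjusted p = 0.00962), and reads of unspliced Coq10b and of Gm17971 cannot be told apart in these counts. Without Gm17971 the pseudogene share of ribosomal protein and pseudogene counts was still higher in all 4 mice, by 0.98 percentage points. The denominator of that share was itself lower in mtD2+ cells. As a share of all counts, the pseudogenes went only from 0.0272% to 0.0278% in mouse 2, where Gm17971 went from 16.6 to 41.9 CPM. In that mouse Gm17971 rose by more than all the pseudogenes together, so the others fell as a share of all counts. For the other mice the share of all counts was not computed without Gm17971. With only the pseudogenes named after a ribosomal protein, the share of ribosomal protein and pseudogene counts was higher by 0.32 points.

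Gm4832 (17:88125512-88131113, plus strand), annotated as a transcribed processed pseudogene, overlaps no other annotated gene. It was at 3.43, 0.681, 2.82 and 2.39 CPM in mtD2- and at 9.62, 7.79, 8.81 and 14.5 CPM in mtD2+ cells, again without overlap (log2 2.27 ± 0.41 SE, edgeR adjusted p = 0.0166; the call was lost whichever mouse was left out). Rps24 had a log2 estimate of -0.17 ± 0.12 SE (edgeR adjusted p = 0.450). The stretches below show where each copy can be told from its parent: coding bases 153 to 212 of Rps2 hold 5 differences from Gm17971, and bases 61 to 120 of Rps24 hold 3 from Gm4832, in capitals.
Rps2: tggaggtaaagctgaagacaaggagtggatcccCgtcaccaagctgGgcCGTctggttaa
Gm17971: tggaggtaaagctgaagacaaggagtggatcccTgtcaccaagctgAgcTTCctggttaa
Rps24: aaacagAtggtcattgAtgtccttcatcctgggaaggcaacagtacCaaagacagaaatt
Gm4832: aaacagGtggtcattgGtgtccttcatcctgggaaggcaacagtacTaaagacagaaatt

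RefSeq promoter sequences (GRCm38.p6) were at hand for 63 of the 83 genes. A C followed by at least 5 more C or T, read in the direction of the mRNA, was sought in a window from 30 bases before to 10 bases after the annotated start. For genes with several listed starts, any start with such a run was enough. Of the 63 genes 39 (61.9%) held a run, against 35.6% of 10127 other tested genes and 33.6% of all other genes with a promoter. A run can lie wholly before the start, as that of Rpl4 does, so it need not be part of the mRNA. The window and the run length were chosen after the base composition there had been seen. The log2 fold change had a median of -0.22 in the 38 tested genes with such a tract and -0.28 in the 22 without. The windows of Rps9, Rpl4 and Rplp2, which hold one, and of Rpl7l1 and Rpl10, which do not, are printed with the tract in capitals.
Rps9: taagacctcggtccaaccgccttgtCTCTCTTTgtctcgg
Rpl4: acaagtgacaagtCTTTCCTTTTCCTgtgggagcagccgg
Rplp2: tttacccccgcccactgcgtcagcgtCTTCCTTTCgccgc
Rpl7l1: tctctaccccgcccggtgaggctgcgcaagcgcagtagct
Rpl10: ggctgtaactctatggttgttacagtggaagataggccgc
They lie at 7:3704011-3704050 (plus strand), 9:64173357-64173396 (plus), 7:141447621-141447660 (plus), 17:46782647-46782686 (minus) and X:74270786-74270825 (plus). An absent match says only that these letters are not in the window at the annotated start.

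Other genes of translation were counted by lists. None of 5 tested ribosomal proteins that the symbol rule misses was called (median log2 -0.16), Rack1, the scaffold on the small subunit, being at -0.22 ± 0.11 SE and Fau at -0.24 ± 0.28 SE. None of 17 elongation factors and other known TOP mRNAs was called (median -0.24, 13 of 17 below 0), the smallest p-values being those of Eif4b (-0.44 ± 0.12 SE, edgeR adjusted p = 0.0745), Vim (-0.36 ± 0.11 SE) and Eif3h (-0.32 ± 0.11 SE). The median of this list lay close to that of the ribosomal proteins. The lists share some genes, and Eif4b and Eif3h are also counted among the initiation factors below.

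Genes that build the ribosome and start translation had calls in the other direction. Of 62 ribosome biogenesis genes 5 (8.06%) rose, against 3.72% of all genes, and none fell (median 0.15, 24 of 62 below 0): Nolc1 (0.95 ± 0.11 SE) and nucleolin, Ncl (0.86 ± 0.11 SE), both nucleolar phosphoproteins, Nop56 (0.66 ± 0.14 SE) of the box C/D particles, Nop14 (0.63 ± 0.14 SE) of small subunit processing, and Nmd3 (0.64 ± 0.15 SE), the export adaptor of the large subunit. The summed level of the list was 3122 to 3912 CPM in mtD2- and 3945 to 5686 CPM in mtD2+ cells, with no overlap. Ncl made up much of this difference, at 538 to 965 CPM and 1082 to 1923 CPM; without it the sum was 2584 to 2972 CPM and 2863 to 3764 CPM, higher in all 4 mice in overlapping groups. Of 37 initiation factors 5 (13.5%) rose, against 3.72% of all genes, and none fell (median -0.13, 23 of 37 below 0): Eif5 (0.95 ± 0.11 SE), the cap-binding Eif4e (0.58 ± 0.10 SE), Eif3a (0.69 ± 0.14 SE), and the helicases Eif4a1 (0.53 ± 0.11 SE) and Eif4a2 (0.54 ± 0.12 SE). In both lists every call was lost without the mouse block, and with 1 mouse left out those of Eif5, Nolc1 and Ncl held each time while the other 7 were lost at least once.

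Of 21 genes of mTORC1 and TOP mRNA control, Tsc1 (0.64 ± 0.11 SE), a brake on mTORC1, and the S6 kinase Rps6kb1 (0.76 ± 0.15 SE) rose (9.52% of the list, against 3.72% of all genes) and none fell, while the median was -0.10 with 13 of 21 below 0. Snhg15 (1.08 ± 0.17 SE) was the 1 of 8 snoRNA host genes that rose (12.5%, against 3.72% of all genes). These 3 calls, too, were lost without the mouse block and on leaving out mouse 1, 2 or 3. No call was made among 10 chaperones and importins of ribosomal proteins (median -0.07), 14 genes of ribosome quality control (median -0.08) or 6 genes around the Rpl5 and Rpl11 checkpoint on p53 (median 0.30), where Mdm2 had 0.44 ± 0.11 SE (edgeR adjusted p = 0.0553).

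**Figure D5:**
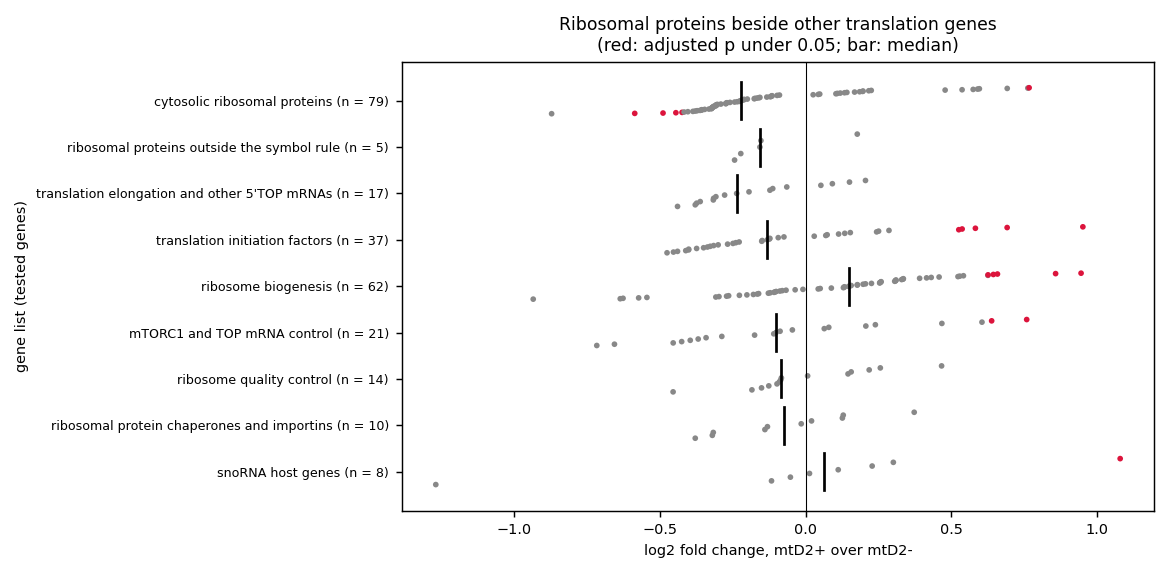
Log2 fold change (x axis, mtD2+ over mtD2-) of each tested gene in the ribosomal protein set and in 8 other lists of translation genes (rows), with the median of each list as a bar and genes past the test in red. The bars of the ribosomal proteins (-0.22) and of the elongation and TOP list (-0.24) lie left of 0 and that of ribosome biogenesis (0.15) right of it. Some genes are on several of the lists.

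The genes whose level followed the summed ribosomal protein level most closely were Ndufa3, Cirbp, Atp5c1, Fxyd5 and Rgs19. Their Pearson's r of log2 CPM was 0.998 to 0.999 over the 8 libraries after the mean of each mouse was taken out. Of these genes Cirbp (-0.90), Fxyd5 (-0.62) and Rgs19 (-0.70) fell. With that mean removed, both libraries of a mouse hold the same deviation with opposite signs. The r thus rests on only as many separate values as there are mice. A gene lower in the mtD2+ cells of every mouse tends to a high r. The genes were also picked for their r, so its height and the shared direction say little about a link to ribosomal proteins.

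Other signals differed between the same libraries. Nuclear-retained RNA and mitochondrial mRNA summed to 17489 to 47397 CPM in mtD2- and 52240 to 80551 CPM in mtD2+ cells. Of 11 tested genes of this list Neat1 and Malat1 rose (18.2%, against 3.72% of all genes). Without these RNAs in the denominator the ribosomal protein share was still lower in all 4 mice (mean log2 ratio -0.28). Among 24 genes that tissue dissociation is known to induce, 9 rose (37.5%, against 3.72% of all genes), Hspe1 (1.22) and Hsph1 (1.18) first. Of 13 fibroblast and adipocyte precursor markers 9 fell, against 1.78% of all genes. The sum of the 13 was 1877 to 4680 CPM in mtD2- and 630.1 to 925 CPM in mtD2+ cells, and all 13 had counts. Of 14 macrophage markers Aif1, Adgre1 and C1qb fell, against 1.78% of all genes, and Mertk rose (7.14%, against 3.72%). None of 8 adipocyte markers was called, but all 8 estimates were above 0 with a median of 0.54 (sum 539 to 726 CPM and 555 to 1166 CPM). Of 5 tested B cell markers Cd79b fell. The part of these signals in the ribosomal protein values was not tested.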

How the data were processed

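Each library had a deposited table of read counts per gene, with the authors' CPM and RPKM beside the counts (per the file headers; deposited CPM is the count scaled by the library total and deposited RPKM is that per kilobase of the listed gene length). The submitters' processing notes name bcl2fastq, STAR 2.0.4b, Subread featureCounts 1.45 and GRCm38; the sources used here do not give alignment and counting options, such as strand and reads with several matches. Tests used the deposited counts. The CPM printed here are scaled by TMM factors, and the RPKM printed here are these CPM over the deposited lengths. Libraries were from 4 mice, which pair the samples.

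The 41388 gene IDs were named with GENCODE M21 (40340 matched; the other 1048 held no more than 0.426% of the counts in any library). Genes were kept with filterByExpr (minimum count 10, total 15, proportion 0.7), fitted in edgeR 4.0.16 (R 4.3.3) with mouse and population as terms, and adjusted by Benjamini-Hochberg; SE is the log2 fold change over the root of F. Single values per library were compared by exact two-sided sign-flip permutation tests over the 4 mice. The pairing was taken from the labels, which name the mouse of each library; deviations of the 2 libraries of a mouse correlated at 0.04 to 0.25 over all genes (for mouse 1, 0.04 against 0.06 with the best other library) and 0.15 to 0.55 over the ribosomal protein genes. On simulated counts the fit called 0%, 22.9%, 52.1% and 61.7% of genes changed 1.25, 1.5, 2 and 3 times, and 0.0303% of 13190 unchanged genes. The changed genes were drawn at random from all levels and were a smaller share than the genes called in the data. These rates are thus not those of the ribosomal protein genes.

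Pseudogenes were matched to coding sequences with BLAST 2.17.0 (E-value limit 1e-20). Alternatives were other scaling (library totals, DESeq2 size factors), DESeq2 1.42.0, limma 3.58.1 voom, other count filters, a length and GC correction, pseudogene counts added, and each mouse left out. Sequences are from GENCODE M21 transcripts and RefSeq promoters; 20 of the genes had no promoter in the table used.

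Genes named are those past the test, the 5 highest and 5 lowest fold changes, the 3 highest and 3 lowest RPKM among tested genes, paralogues with their ordinary counterparts, Rpsa, the stalk proteins, Rps6, Rpl10, Rpl11, Rpl5 and the untested genes; in other lists, called genes and up to 3 of smallest p; and the 5 genes most like the summed level (mean of at least 5 CPM). The genes, lists and this rule were chosen with earlier results of these data known. Some genes that the rule names are not reported here, and the counts and medians include them. The lists of T cell, neutrophil, endothelial, mesothelial and dendritic cell markers had 4, 1, 3, 4 and 4 tested genes, none called.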

Additional observations from a re-analysis of the deposited data

Results flagged for a closer look

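In 5 of 72 groups of 4 libraries looked at, 1 library stood apart from the other 3 (its gap to the nearest, over the range, was above Dixon's critical value); chance flags about 1 in 20 groups. In mtD2- cells Rps23 was at 2.99 CPM in mouse 3 against 2.00 to 2.12 CPM, and Rps4x at 46.3 CPM in mouse 4 against 36.1 to 36.5 CPM. Rps28 in mtD2+ cells was at 38.0 CPM in mouse 4 against 23.0 to 25.3 CPM. The log2 ratio of large to small subunit was 0.46 in the mtD2- cells of mouse 2 against 0.56 to 0.58. The pseudogene share was 2.39% in the mtD2- cells of mouse 4 against 2.79% to 2.85%.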

How the results depend on the processing

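The median log2 fold change of the ribosomal protein genes stayed below 0 under every setting that used all of them, from -0.28 with library totals to -0.17 with the length and GC correction (-0.23 to -0.17 with 1 mouse left out). In settings added after seeing the data it was -0.32 over genes with under 50% of coding windows shared (2 calls) and 0.14 over those with all shared (1 call). The number of called ribosomal protein genes was less stable: 1 without the replicate block (pairing ignored), 3 with DESeq2 size factors, 13 with DESeq2's Wald test, 7 with library totals or voom, 4 with pseudogenes added, and 0 to 2 with 1 mouse left out; edgeR called none without mouse 1, 2 or 3. With the length and GC correction 5 were called, 3 of them among the original 5. Over all genes 767 were called, 218 without the replicate block, 1816 with DESeq2's Wald test, and 166 to 555 with 1 mouse left out; library totals split the calls 407 higher to 349 lower in place of 519 to 248. Without the replicate block, the exact unpaired permutation test gave p = 0.0286 for the subunit ratio (0.081) and for the pseudogene share (1.42 points), and 0.0571 for the share of counts (-0.32). This test ignores that the libraries are paired by mouse, and 0.0286 is the smallest p it can give. The exact paired permutation test, which keeps the pairs, gave p = 0.13 for each. The log2 fold change turned to 0.17 for Rps27 and -0.060 for Rpl11 with pseudogenes added, to -0.074 for Rpl5 without mouse 3 (0.52 without mouse 4) and to 0.024 for Rps27 without mouse 4. The share of counts ranged from -0.35 to -0.28 (mean log2 ratio), the subunit ratio from 0.06 to 0.10 and the pseudogene share from 1.27 to 1.63 points with 1 mouse left out. The causes were not tested, beyond the fewer samples when a mouse is left out. Genes at a few CPM have standard errors of up to 0.64, which hides changes of the size seen in the abundant ones.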
